A study of Mus musculus with 2 samples.

Results

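Gm43305 and Rpgrip1, a pair of genes about 2.13 Mb apart on mouse chromosome 14, were examined together with 4 genes that lie beside them, Supt16, Dad1, Abhd4 and Oxa1l, in group 2 innate lymphoid cells (ILC2s) of the lung. These 6 genes, of 32285 in the deposited matrices, were chosen with results of these data known: Gm43305 and Rpgrip1 were selected on their ratio of Pac1-/- to WT level, and the others were taken for their position. The question was whether the low level of that pair extended to neighbouring genes, and how the RNA of each gene was spread over cells and cell states. Pac1 is the protein name of Dusp2, a nuclear phosphatase that acts on mitogen-activated protein kinases and is induced when lymphocytes are activated.

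The data were 1 single-cell library of WT and 1 of Pac1-/- ILC2s. The Pac1-/- mice were kept on the C57BL/6J background. The labels name no treatment and no further allele for either genotype, and the methods give an age of 6 to 8 weeks, matched between groups, for the mice of all experiments. The cells of several mice per genotype had been pooled after sorting live cells that lacked lineage markers and carried CD90.2, ST2 and Sca-1, so a library is 1 sample and no difference between genotypes can be tested. Intervals cover counting error at the 95% level only, and differences between mice, pools or library preparations are outside it. For levels and ratios, differences between cells are outside it too.

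After leaving out barcodes with under 500 detected genes or over 10% mitochondrial counts, 8394 of 10866 WT and 7087 of 9495 Pac1-/- barcodes remained. They held 54579034 and 58338886 unique molecular identifiers (UMIs, counts of captured RNA molecules), with medians of 4186.5 and 5577 UMIs per cell. The libraries shared 29 barcodes, of which 15 passed in both. At least 2 of 7 ILC2 markers were found in 98.7% of the cells of either library. In WT and Pac1-/- cells respectively, 4.75% and 3.73% held at least 2 markers of T cells, 0.762% and 2.36% at least 2 of epithelium, and 0.226% and 1.30% both erythroid markers, while the lists for B, myeloid, mast, endothelial, stromal and NK cells stayed under 0.4% in each. The targeted gene matched the labels, as Dusp2 had 1419 UMIs in WT and 5 in Pac1-/- cells. Levels are given in CPM, the UMIs of a gene per 1000000 UMIs of its library, which with 3′ capture does not depend on transcript length to a first order. Ratios are Pac1-/- over WT on the log2 scale. Since the median gene stood at 0.19 over 12427 genes with at least 50 UMIs, a relative log2 ratio is the ratio minus that median, and a gene is called lower or higher here when its relative ratio reached -1 or 1.

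The members have unlike tasks. Gm43305 is annotated as a noncoding processed transcript, and no function of it is assumed here. Rpgrip1 encodes a scaffold protein of the connecting cilium in photoreceptors, where it binds RPGR, and its loss causes retinal degeneration. Supt16 encodes a subunit of FACT, the histone chaperone that opens nucleosomes ahead of RNA polymerase II. Dad1 encodes a subunit of oligosaccharyltransferase, the complex of the endoplasmic reticulum that attaches N-glycans to secreted and membrane proteins. Abhd4 encodes a lipase that acts on N-acyl phospholipids, and Oxa1l encodes the insertase that places proteins into the inner mitochondrial membrane. ILC2s make IL-5 and IL-13 and are therefore secretory cells, but they are not known for photoreceptor-type cilia.

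By the GENCODE annotation of GRCm38, the build of the deposited files, the genes fall into 2 groups. Rpgrip1 (ENSMUSG00000057132) spans chr14:52110704-52163546 on the plus strand and Supt16 (ENSMUSG00000035726) spans chr14:52160414-52197416 on the minus strand, so the pair overlaps tail to tail by 3133 bases. Whether counting used strand was not stated, and UMIs from the overlap may be assigned to either gene or to none. In the other group Dad1 (ENSMUSG00000022174) spans chr14:54235479-54254104 on the minus strand and Abhd4 (ENSMUSG00000040997) spans chr14:54254188-54270637 on the plus strand, head to head with 83 bases between them. Gm43305 (ENSMUSG00000105703) follows at chr14:54292443-54297456 on the minus strand, 21.8 kb from Abhd4, and Oxa1l (ENSMUSG00000000959) at chr14:54360834-54369673 on the plus strand, 63.4 kb from Gm43305.

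Gm43305 has a near copy on chromosome 8, which bears on how its counts can be read. The window from 250 bases before to 50 bases after its start site (RefSeq, GRCm38.p6, minus strand, chr14:54297439-54297738) was found almost whole at the start of another noncoding gene, Gm42031 (ENSMUSG00000110386, minus strand, chr8:85131765-85132064). The windows are shown because 294 of their 300 bases (98.0%) are identical, with capitals at the bases that differ:
Gm43305: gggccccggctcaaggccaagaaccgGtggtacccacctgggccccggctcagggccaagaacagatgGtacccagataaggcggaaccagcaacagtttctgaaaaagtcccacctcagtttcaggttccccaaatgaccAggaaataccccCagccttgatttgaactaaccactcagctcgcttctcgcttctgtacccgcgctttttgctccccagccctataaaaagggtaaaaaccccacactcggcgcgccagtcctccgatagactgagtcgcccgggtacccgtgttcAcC
Gm42031: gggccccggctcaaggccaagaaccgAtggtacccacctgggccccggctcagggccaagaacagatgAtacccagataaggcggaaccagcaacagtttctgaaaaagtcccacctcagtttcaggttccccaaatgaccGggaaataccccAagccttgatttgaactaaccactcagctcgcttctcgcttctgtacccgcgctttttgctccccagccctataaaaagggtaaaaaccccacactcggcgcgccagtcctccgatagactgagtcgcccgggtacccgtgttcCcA

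Counted from the 5′ end of the window and with the base of Gm43305 first, the differences were G27A, G69A, A142G, C154A, A298C and C300A. The likeness extends to the end of the transcripts, where 3′ libraries are read: 61.2% of the 31-base runs in the last 500 bases of the Gm43305 transcripts also occur in transcripts of Gm42031, and 66.9% occur in some other gene. For Rpgrip1 that share was 0.385%, and for Supt16, Dad1, Abhd4 and Oxa1l it was 0. Reads of Gm43305 and its copies may therefore have been lost or assigned to one another, and the values of Gm43305 are uncertain to that extent. How many were so assigned was not tested.

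Gm43305 was the most abundant of the 6 genes in WT cells and stood far lower in Pac1-/- cells. It had 71844 UMIs, or 1316 CPM (1307 to 1326), in WT and 4054 UMIs, or 69.5 CPM (67.4 to 71.7), in Pac1-/- cells. The WT level was 18.9-fold (18.4 to 19.6) the Pac1-/- level, a relative log2 ratio of -4.43 (-4.48 to -4.39). Of the 12427 genes compared, Gm43305 had the rank 4 from the lowest, and 15 genes stood at or below -3. As this ratio chose the gene, it is a description.

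The near copy Gm42031 was also lower. It had 38716 UMIs, or 709 CPM, in WT and 4948 UMIs, or 84.8 CPM, in Pac1-/- cells, a relative log2 ratio of -3.25 (-3.29 to -3.21). The other 3 genes that share transcript-end runs with Gm43305 and were matched in the files did not reach a call. AI506816 stood at -0.28, Gm4316 at -0.46 and Chd9, a chromatin remodeller gene, at 0.34. They share fewer of the runs than Gm42031, between 16.2% and 20.5%.

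Rpgrip1 was a rare transcript in WT cells and rarer still in Pac1-/- cells. It had 1099 UMIs, or 20.1 CPM (19.0 to 21.4), in WT and 124 UMIs, or 2.13 CPM (1.77 to 2.53), in Pac1-/- cells. The ratio of WT to Pac1-/- was 9.47-fold (7.86 to 11.5), with a relative log2 ratio of -3.43 (-3.71 to -3.16) and the rank 8 from the lowest. This ratio, too, chose the gene. The promoter window of Rpgrip1 is shown for comparison with that of Gm43305 (RefSeq, GRCm38.p6, plus strand, chr14:52110653-52110952), with capitals at the motif matches:
Rpgrip1: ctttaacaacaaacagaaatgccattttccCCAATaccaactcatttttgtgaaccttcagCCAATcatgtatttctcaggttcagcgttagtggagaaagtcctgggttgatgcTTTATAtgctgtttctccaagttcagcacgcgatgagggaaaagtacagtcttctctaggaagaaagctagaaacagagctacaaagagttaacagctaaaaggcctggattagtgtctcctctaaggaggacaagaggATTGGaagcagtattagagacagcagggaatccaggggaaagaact

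Both strands of the windows were searched for the motif named TATA box, with the letters TATAAA, for CCAAT, for the GC box GGGCGG, for the E-box motif CACGTG, for the cAMP response element (CRE) with the letters TGACGTCA and its shorter form TGACG, which lies within it, for the ETS core CCGGAAG and for the AP-1 motif TGACTCA. The Rpgrip1 window holds CCAAT 2 times on the plus and 1 time on the minus strand and TATAAA 1 time on the minus strand. It has 42.7% GC and 3 CpGs, against a median of 52.7% and 7 over 32851 promoter windows. The Gm43305 window holds TATAAA on its own strand 27 bases before the start site, a motif found in 13.6% of all windows, and none of the other letters searched. The pair shares no 20-base run, while 283 of the 300 bases of the Gm43305 window lie in such runs shared with windows of 5 other genes.

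**Figure D1:**
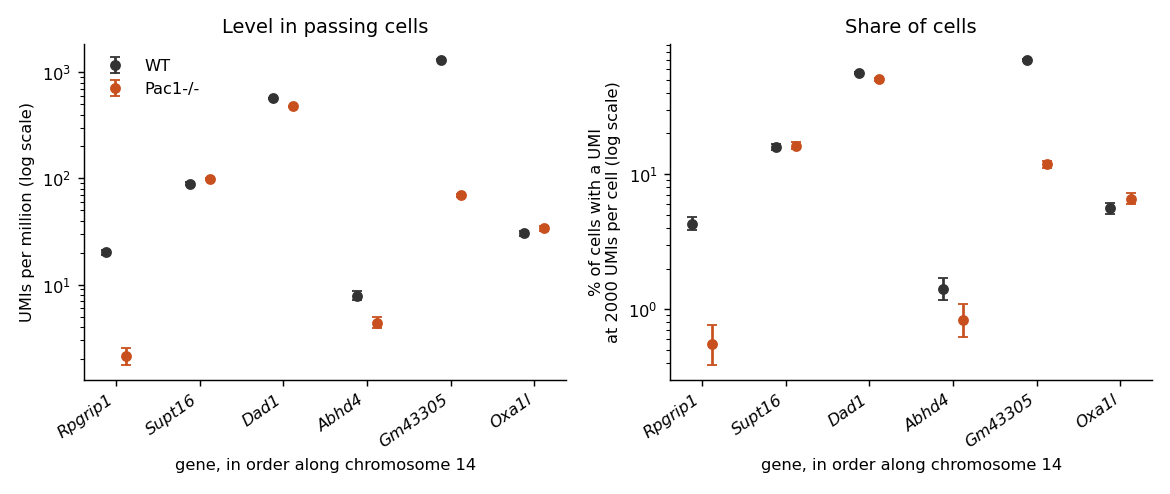
Level (left, CPM) and share of cells with at least 1 UMI after thinning each cell to 2000 UMIs (right, percent) of the 6 genes in the WT (dark) and Pac1-/- (orange) library, both on log axes, with 95% counting intervals. Gm43305 fell from 1316 to 69.5 CPM and Rpgrip1 from 20.1 to 2.13 CPM, while Supt16 and Oxa1l stood close together in both libraries.

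The 4 genes beside them differed less. With Gm43305 and Rpgrip1, which were chosen for it, 3 of the 6 genes were called lower and 0 higher, against 5.09% and 2.08% of the 12427 genes compared, and nothing is read from that count. Only Abhd4, of the 4 genes taken for their position, was past the limit, by a narrow margin. Abhd4 was also the least abundant of the 4, with 431 UMIs, or 7.90 CPM (7.17 to 8.68), in WT and 256 UMIs, or 4.39 CPM (3.87 to 4.96), in Pac1-/- cells. Its relative log2 ratio was -1.04 (-1.26 to -0.81), while the ratio as counted was -0.85, short of 2-fold. In cells without a UMI of any gene that sets a cell state (below), the ratio as counted was -0.17, with an interval of -0.78 to 0.45.

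Dad1, the partner of Abhd4 across the shared start region, was slightly lower. It had 31024 UMIs, or 568 CPM (562 to 575), in WT and 27830 UMIs, or 477 CPM (471 to 483), in Pac1-/- cells. The relative log2 ratio was -0.44 (-0.46 to -0.42), and the WT level was 1.19-fold the Pac1-/- level. The windows of Dad1 and Abhd4 overlap by 299 bases as exact reverse complements, so the sequence is shown 1 time, on the strand of Dad1 (RefSeq, GRCm38.p6, minus strand, chr14:54253880-54254179), with a GC box and a palindrome of CCAAT boxes in capitals:
Dad1: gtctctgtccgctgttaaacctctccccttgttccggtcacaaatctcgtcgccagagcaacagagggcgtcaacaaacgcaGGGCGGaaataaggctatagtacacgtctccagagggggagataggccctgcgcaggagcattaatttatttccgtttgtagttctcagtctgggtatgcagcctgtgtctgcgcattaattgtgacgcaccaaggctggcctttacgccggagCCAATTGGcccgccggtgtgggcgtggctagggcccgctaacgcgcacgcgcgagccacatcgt

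The pair that shares this region differed in level by far more than in ratio, with Dad1 at 568 and Abhd4 at 7.90 CPM in WT cells. CCAAT occurs in 37.4% and GGGCGG in 35.7% of all windows. The Dad1 window also holds TGACG 1 time on each strand, not in capitals above, a motif found in 20.8% of all windows. A further window is listed for Abhd4, at chr14:54259033-54259332, and 3′ counts do not tell the starts apart.

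Supt16 and Oxa1l stood close to the median gene. Supt16 had 4872 UMIs, or 89.3 CPM (86.8 to 91.8), in WT and 5746 UMIs, or 98.5 CPM (96.0 to 101), in Pac1-/- cells. Its relative log2 ratio was -0.05 (-0.10 to 0.01), and as counted it was 0.14. Oxa1l had 1658 UMIs, or 30.4 CPM (28.9 to 31.9), in WT and 1972 UMIs, or 33.8 CPM (32.3 to 35.3), in Pac1-/- cells. Its relative log2 ratio was -0.03 (-0.13 to 0.06), and as counted it was 0.15. Both thus changed sign with the scaling, and both intervals of the relative ratio include 0. Supt16 overlaps the end of Rpgrip1, and its level did not fall with that of Rpgrip1. The Oxa1l window holds TGACGTCA, found in 1.79% of all windows, 89 bases before the start site.

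Most genes within 1 Mb of the 6 stayed within 2-fold of the median gene. Of 303 annotated genes in that range, 36 had at least 50 UMIs, the 6 left out. Of these, 5 (13.9%) were called lower and 1 (2.78%) higher, with a median relative log2 ratio of -0.17. Over all of chromosome 14 the share called lower was 6.09% of 443 genes, and over all genes 5.09%. The count moved with the window, at 3 of 22 within 250 kb and 6 of 89 within 3 Mb, where the median was 0.06. No test was made, as neighbouring genes of 1 pair of libraries are not replicates.

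The 5 lower neighbours lay between 68.2 and 647 kb from Gm43305 or Rpgrip1, and each stood above the ratio of either. Trdv4, a variable segment of the T cell receptor delta locus, had 20379 UMIs in WT and 6057 in Pac1-/- cells (-2.03), and Trac, the constant segment of the alpha chain, had 441 and 178 (-1.59). The constant segment Trdc of the same locus went the other way without a call, with 288 and 627 UMIs (0.84). The T cell markers went different ways. Cd3e stood at 10.5 CPM in WT and at 5.88 in Pac1-/-, and Cd3d at 4.23 and 2.25. Trbc2, which made up most of the summed level of 276 and 395 CPM of the 5 markers, stood at 261 and 386 CPM and was found in 61.7% and 74.3% of cells, while Cd8a was at 0 in both. Their part in the counts of Trdv4 and Trac was not tested. Mrpl52, which encodes a protein of the mitochondrial ribosome, had 10793 and 6008 UMIs (-1.13) and lies 129 kb from Gm43305, beyond Oxa1l. Ppp1r3e, a glycogen-targeting subunit of protein phosphatase 1, had 225 and 68 UMIs (-2.01). Vmn2r89, a vomeronasal receptor gene 647 kb from Rpgrip1, had 157 and 42 UMIs (-2.19). The gene called higher was Arhgef40, with 17 and 43 UMIs (1.06).

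The genes of at least 50 UMIs closest to the pair on either side had relative log2 ratios between -1.59 and 0.35. To the left of Gm43305 came Abhd4 (-1.04), Dad1 (-0.44) and Trac (-1.59), and to its right Oxa1l (-0.03), Mrpl52 (-1.13) and Gm10366 with 344 and 396 UMIs (-0.08). To the left of Rpgrip1 came Hnrnpc, which encodes an RNA-binding protein of nascent transcripts, with 19059 and 15856 UMIs (-0.55), then Zfp219 with 750 and 1162 (0.35) and Gm49086 with 48 and 31 (-0.91). To its right came Supt16 (-0.05), the chromatin remodeller gene Chd8 with 3989 and 4162 (-0.22) and Rab2b with 847 and 856 (-0.27). The near end of Hnrnpc lies 6.68 kb from Rpgrip1. One gene under the limit of 50 UMIs was noticed after its values were seen. Olfr49, an olfactory receptor gene 7.50 kb downstream of Gm43305 on the same strand, had 31 UMIs in WT and 0 in Pac1-/- cells, a relative log2 ratio of -3.65 or lower when the Pac1-/- library is set to a floor of 3 counts.

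**Figure D2:**
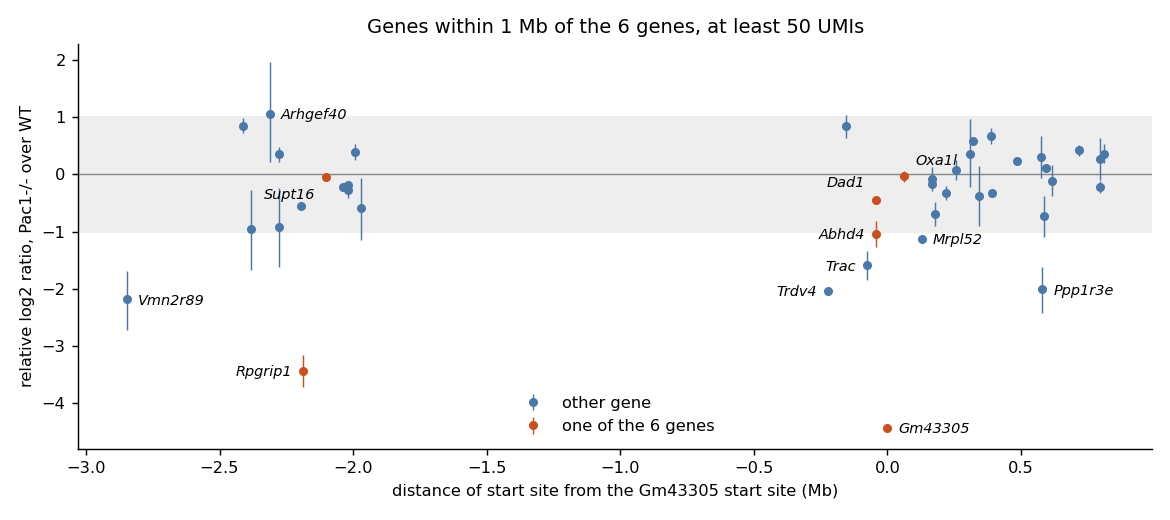
Relative log2 ratio (Pac1-/- over WT, minus the median of all genes) of genes with at least 50 UMIs within 1 Mb of the 6 genes, against the distance of their start site from that of Gm43305 in Mb. Bars are 95% counting intervals, the grey band marks ratios between -1 and 1, and names are given for the 6 genes (orange) and for genes outside the band. Gm43305 at -4.43 and Rpgrip1 at -3.43 lie below all others, and Abhd4 and 5 genes outside the 6 lie under -1.

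The low level of Gm43305 was seen across cells rather than in a few. To compare shares at 1 depth, each cell was thinned to 2000 UMIs, which left 7480 WT and 6470 Pac1-/- cells. Gm43305 was detected in 69.6% (68.5 to 70.6) of the WT cells and in 11.8% (11 to 12.6) of those of Pac1-/-, and without thinning in 81.8% and 34.2%. In WT cells 20.6% held 3 to 5 UMIs, 9.61% held 6 to 10 and 2.61% held over 10, up to 30. In Pac1-/- cells 10.4% held 1 UMI, 1.22% held 2 and 0.124% held 3 to 5, and the highest cell held 4. The variance was 3.88 times the mean in WT and 1.11 times in Pac1-/- cells. This ratio goes to 1 as the mean falls, so it was also taken as the excess over 1 divided by the mean, which was 1.22 in WT and 0.863 in Pac1-/- cells. Gm43305 was thus uneven among cells of both libraries.

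Rpgrip1 was too rare for a view of its spread. It was detected in 4.29% (3.84 to 4.78) of the thinned WT cells and in 0.556% (0.390 to 0.769) of those of Pac1-/-, and without thinning in 11% and 1.67%. The level corresponds to 0.0451 and 0.00572 UMIs per thinned cell, and the variance was 1.06 and 1.05 times the mean. The excess over 1 divided by the mean was 1.37 and 8.45, where the Pac1-/- value rests on 36 cells with a UMI. Abhd4 was alike in rarity, at 1.42% (1.16 to 1.71) and 0.835% (0.628 to 1.09). Oxa1l was found in 5.57% (5.07 to 6.12) and 6.55% (5.96 to 7.18), and Supt16 in 15.8% (15.0 to 16.6) and 16.2% (15.4 to 17.2). Dad1 was found in 55.7% (54.6 to 56.9) and 50.2% (48.9 to 51.4), with a variance of 2.11 and 2.56 times the mean and the highest cells at 16 and 19 UMIs. Its excess over 1 divided by the mean was 1.04 and 1.66, a range that includes the value of Gm43305 in WT.

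Rpgrip1 was found at similar shares in WT cells with and without Gm43305, with intervals that overlap. Among thinned WT cells, Rpgrip1 was found in 4.19% (3.66 to 4.77) of those with a Gm43305 UMI and 4.53% (3.71 to 5.46) of those without. Among Pac1-/- cells the shares were 1.05% (0.454 to 2.06) and 0.491% (0.326 to 0.708), from 8 and 28 cells. Dad1 went with Gm43305 in WT cells, at 58.9% (57.5 to 60.2) of cells with and 48.6% (46.5 to 50.7) without a Gm43305 UMI. In Pac1-/- cells Dad1 stood at 51.3% (47.7 to 54.9) and 50% (48.7 to 51.3). The near copy Gm42031 was found in 58.3% of WT cells with Gm43305 and in 35.6% without, and among Pac1-/- cells in 19.2% (16.4 to 22.1) and 15.3% (14.4 to 16.3). Reads assigned from one copy to the other may affect these shares too. Free RNA can place UMIs in cells that do not make them, and few cells of another type were at hand to measure it: of cells with at least 2 B cell markers and no T cell marker, 6 in WT and 13 in Pac1-/- with medians of 3178 and 3926 UMIs, 3 and 2 held Gm43305 (50% and 15.4%), and 1 and 1 held Rpgrip1. The level of Gm43305 in these cells was 392 CPM (169 to 772) in WT, below that of all WT cells, and 58.3 CPM (12 to 170) in Pac1-/-, which could not be told apart from the 69.5 CPM of all Pac1-/- cells. How much of the Pac1-/- level of Gm43305 is free RNA was not tested.

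**Figure D3:**
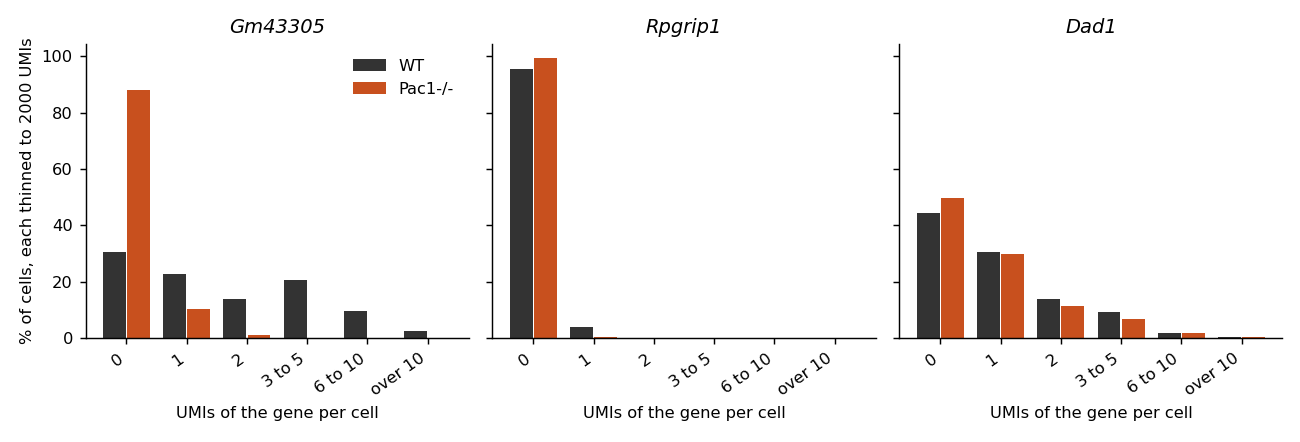
Percent of cells, each thinned to 2000 UMIs, by the number of UMIs of Gm43305, Rpgrip1 and Dad1 they held, for WT (dark, 7480 cells) and Pac1-/- (orange, 6470 cells). Cells without a UMI of Gm43305 made up 30.4% in WT and 88.2% in Pac1-/-, whereas the bars of Dad1 stand at similar heights in both libraries.

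Cell states were set by UMIs of single genes in a fixed order: the type 2 cytokine genes Il5 and Il13 together, Il5 only, Il13 only, then Calca (the gene of the neuropeptide CGRP), Cxcl1 (a chemokine), Actn2 and S1pr1 (a receptor for egress from tissue), and none of these. The state of S1pr1 held 21 WT and 32 Pac1-/- cells and was left out after its size was seen, which leaves 7 states of at least 100 cells. Depth differed between states: the median in WT was 8725 UMIs in cells with Il5 and Il13 and 3339 in cells with none. Its part in the assignment of states was examined only by also setting states from counts thinned to 2000 UMIs. With Il5 and Il13 were 21.9% of WT and 14.1% of Pac1-/- cells, and with none 22.5% and 33.8%.

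In WT cells Gm43305 was highest in cells with both cytokine genes and lowest in cells marked by Actn2. Its level was 1521 CPM (1504 to 1537) with Il5 and Il13, 1311 with Il5 only, 1220 with Il13 only, 1218 with Calca, 1026 with Cxcl1, 864 with none and 676 (615 to 743) with Actn2. The intervals of Il13 only and Calca overlapped and those of the other neighbours in this order did not. These intervals treat the UMIs of a cell as independent. Over all thinned WT cells the variance of Gm43305 was 3.88 times the mean, so they are likely too narrow. The order of neighbouring states is therefore not settled. The highest state was 2.25-fold (2.05 to 2.48) the lowest. When states were set from counts thinned to 2000 UMIs the ratio was 1.51 (1.40 to 1.65). In Pac1-/- cells the states lay between 65.3 and 77.9 CPM, a ratio of 1.19 (0.914 to 1.54), and their order was not resolved.

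The lower level in Pac1-/- cells was present in each state. As the ratio over the same cells chose both genes, this is a description and no support. Here and below, ratios by state are set against the median gene over all passing cells. No median gene was taken within a state. For Gm43305 the WT level was between 8.69-fold (Actn2) and 20.8-fold (Il5 and Il13) that of Pac1-/- cells in the 7 states. For Rpgrip1 the WT level was between 5.15-fold (Actn2, from 11 and 3 UMIs) and 17.6-fold (Cxcl1, from 25 and 2 UMIs) that of Pac1-/- cells. The interval of its ratio was below the median gene in 7 of 7 states. The smallest of these states thus rest on few UMIs of Rpgrip1. In cells with Il5 and Il13, Rpgrip1 had 405 and 33 UMIs, or 18.4 and 1.95 CPM, and in cells with none of the genes 134 and 29 UMIs, or 20.7 and 2.48 CPM. Rpgrip1 showed no resolved order among WT states, with levels from 17.0 to 26.4 CPM and a ratio of highest to lowest of 1.56 (0.740 to 3.51). In Pac1-/- cells that ratio was 2.22 (0.546 to 19.5). Without barcodes of over 2 times the median UMIs the Pac1-/- ratio was 5.14 (1.20 to 46.4).

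Dad1 was highest in cells with both cytokine genes in either library, at 645 CPM (635 to 656) in WT and 585 (573 to 597) in Pac1-/- cells. Its lowest levels were 311 CPM (270 to 357) with Actn2 in WT and 330 (320 to 341) with none in Pac1-/- cells, so the highest state was 2.07-fold and 1.77-fold the lowest. Without barcodes of over 2 times the median UMIs these ratios were 2.40 and 2.90 (2.49 to 3.41), so the libraries changed order. WT cells with Calca had 536 CPM (515 to 557) and those with Il13 only 496 CPM (471 to 521). These intervals overlapped, so the order of these states was not resolved. The relative log2 ratio of Dad1 lay between -0.48 (Il5 only) and 0.03 (Actn2), and its interval was below the median gene of all passing cells in 5 of 7 states. In WT cells Gm43305 and Dad1 thus shared their highest state. Both had their lowest level with Actn2, but for Dad1 that interval overlapped the one of cells with none, at 359 CPM (344 to 373). In Pac1-/- cells the intervals of the highest and lowest state of Dad1 remained apart, while those of Gm43305 did not. Intervals of several neighbouring states of Dad1 overlapped there. The near copy Gm42031 had the highest and lowest WT states of Gm43305, at 849 CPM with Il5 and Il13 and 325 with Actn2. Its highest state was 2.61-fold (2.28 to 3.01) the lowest in WT and 1.18-fold (0.977 to 1.43) in Pac1-/- cells.

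Abhd4 was lower in the cytokine states and in that of Calca, while intervals were wide elsewhere. With Il5 only it had 126 and 58 UMIs, or 7.51 (6.26 to 8.94) and 3.49 CPM (2.65 to 4.52). With none of the genes it had 38 and 61 UMIs, or 5.88 (4.16 to 8.07) and 5.22 CPM (3.99 to 6.70). Its interval was below the median gene in 4 of 7 states, those of Il5, Il13, both and Calca. In the other 3 states the interval of the ratio included the median gene, and in those of Cxcl1 and Actn2 Abhd4 had between 5 and 7 UMIs per library.

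With states set from all UMIs, Supt16 varied little over states and Oxa1l stood apart in 1 of them. Supt16 lay between 84.3 and 100 CPM in WT and 88.4 and 121 CPM in Pac1-/- cells, with the lowest WT level in cells with both cytokine genes. Oxa1l lay between 28.4 and 32.3 CPM in 6 of the WT states and at 16.9 CPM (9.67 to 27.5) in that of Cxcl1, where Pac1-/- cells had 45.7 CPM (35 to 58.7). The highest state of Oxa1l was 1.91-fold (1.17 to 3.37) the lowest in WT and 1.54-fold (0.966 to 2.53) in Pac1-/- cells, and that of Supt16 was 1.19-fold (1.09 to 1.30) and 1.36-fold (1.04 to 1.78). When states were set from thinned counts, the WT ratio of Oxa1l was 1.43 (0.845 to 2.64), an interval that includes 1. That of Supt16 was then 1.46 (1.07 to 2.05). The difference of Oxa1l between libraries with Cxcl1 rests on 16 and 61 UMIs and was the only state of either gene whose interval lay above the median gene.

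**Figure D4:**
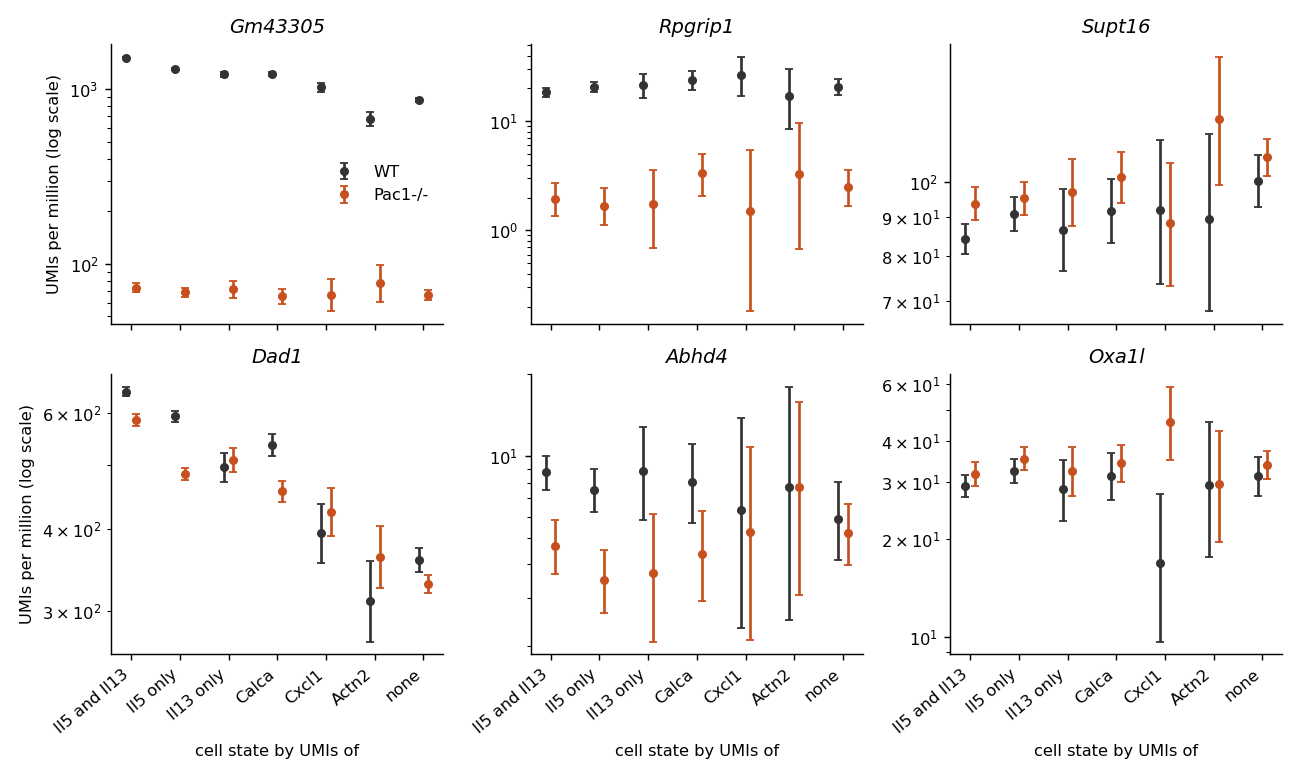
Level of each of the 6 genes (CPM, log axes with a range of their own per panel) in 7 cell states of the WT (dark) and Pac1-/- (orange) library, with 95% counting intervals. For Gm43305 and Rpgrip1 the Pac1-/- points lie below the WT points in 7 of 7 states, and for Gm43305 and Dad1 the WT level was highest with Il5 and Il13.

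For each gene the 3 genes with the most similar pattern were sought by Pearson's r of log2(CPM + 10) over 16 sums, 8 states in each of 2 libraries. The points share their library and depth, and for Gm43305 and Rpgrip1 r is governed by the step between the libraries that chose these genes, so high values mark other genes with such a step. For Gm43305 they were Trdv4 (0.993), Gm10076 (0.989) and the near copy Gm42031 (0.989), with relative log2 ratios of -2.03, -3.29 and -3.25. Gm10076 also lies on chromosome 14, outside the range of 1 Mb, and stood at 5476 CPM in WT and 637 CPM in Pac1-/- cells. For Rpgrip1 they were mt-Nd4l (0.985), Mtrex (0.981) and mt-Nd6 (0.981), which include mitochondrial genes of respiratory complex I. For Dad1 they were Ldha (0.951), the lactate dehydrogenase gene, Ifngr1 (0.947) and D030028A08Rik (0.946). For Supt16 they were Foxk1, Eif2ak2 and Gosr2, for Abhd4 F2r, Gm50228 and B230317F23Rik, and for Oxa1l Nufip2, Mcm3ap and Carmil2, with r between 0.909 and 0.967. Without the thin S1pr1 sums, 2 of 3 names remained for Gm43305, 1 of 3 for Rpgrip1 and 0 of 3 for each of the other genes, and the closest to Rpgrip1 was the deleted gene Dusp2 (0.992).

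Genes that work with the 5 coding members were not called lower or higher. Over 5 lists of partners, 46 genes besides the members had at least 50 UMIs, and 0 were past the limit in either direction, against 5.09% lower and 2.08% higher among all genes, so that few calls were due in a list of this size. The median relative log2 ratio was -0.09 for 9 genes of FACT and histone chaperones, 0.16 for 11 of oligosaccharyltransferase, 0.08 for 9 of inner mitochondrial membrane insertion, 0.04 for 7 of N-acylethanolamine metabolism and -0.23 for 10 of the ciliary transition zone. Of the 5 medians, 3 changed sign with a setting: as counted, the FACT median was 0.10, and under a filter of 1000 to 2500 genes and under 5% mitochondrial counts the median for mitochondrial insertion was -0.023 and that for N-acylethanolamine metabolism -0.0014. Those of oligosaccharyltransferase and the ciliary transition zone kept their sign under both settings, at 0.16 and -0.25 under that filter and 0.34 and -0.040 as counted. Ssrp1, the other subunit of FACT, had 3451 and 4955 UMIs (0.24). In the complex of Dad1, Ddost had 2864 and 4340 UMIs (0.32) and Rpn1 had 1767 and 1272 (-0.76). Rpgr, which encodes the partner of Rpgrip1 at the cilium, had 215 and 276 UMIs (0.08), or 3.94 and 4.73 CPM. Napepld, which acts beside Abhd4 in making N-acylethanolamines, had 32 and 40 UMIs (0.04).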

How the data were processed

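The authors deposited raw UMI counts per gene and barcode for 1 WT and 1 Pac1-/- library, made with the Chromium 3′ kit and aligned to mm10. The submitters' notes name Cell Ranger 6.1.1 and the file header 4.0.0, and the annotation release was not given in the sources used here. The members and lists were chosen with earlier results of these data known.

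Counts were summed over passing cells of each library, deep barcodes included as no doublet caller was run, and divided by all UMIs of those cells. CPM intervals are exact Poisson, ratio intervals exact conditional binomial and shares Clopper-Pearson, all at 95%. No p-value was computed. Scripts (Python 3.11.15, numpy 2.4.6, scipy 1.17.1, pandas 2.3.3) were tested on simulated counts. Coordinates came from GENCODE M21, matched by identifier for 99.6% of genes, and promoter windows from RefSeq.

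Genes named were the members, Dusp2, called genes within 1 Mb, the 3 nearest measured genes on either side of Gm43305 and Rpgrip1, 5 partners, and the 3 most similar genes per member. Gm42031 and the other copies, Olfr49, Trdc and the T cell markers were added after values were seen. Alternatives changed the cell filter (none, or 1000 to 2500 genes with under 5% mitochondrial counts, which left 5557 and 4081 cells), deep barcodes, scaling, thinning, gene minimum and window.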

Additional observations from a re-analysis of the deposited data

Results flagged for a closer look

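Signal of Gm43305 and Rpgrip1 was also present in barcodes that did not pass the cell filter and entered no comparison. In the 2472 such WT barcodes Gm43305 had 2050 UMIs, or 1279 CPM (1224 to 1335), and in the 2408 of Pac1-/- it had 144 UMIs, or 74.1 CPM (62.5 to 87.2). Rpgrip1 had 76 UMIs, or 47.4 CPM (37.4 to 59.3), in WT and 16 UMIs, or 8.23 CPM (4.70 to 13.4), in Pac1-/- barcodes, above its levels of 20.1 and 2.13 CPM in passing cells. Whether these barcodes hold damaged cells or free RNA was not tested.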

How the results depend on the processing

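Gm43305 and Rpgrip1 were lower under each of 7 alternatives, with log2 ratios from -4.43 to -3.70 and from -3.43 to -2.98. Both were chosen by this ratio in the same libraries, so the kept sign is a description. For Gm43305 the ratio, -4.24 as counted, was -4.11 without barcodes of over 2 times the median UMIs, -4.15 after thinning, -4.43 relative to the median gene and -3.70 in cells without a state gene, an alternative chosen after seeing the data. The ratios of Dad1 and Abhd4 had a negative sign under 7 of 7 alternatives, with ranges of -0.44 to -0.12 and -1.04 to -0.17, but Dad1 reached -1 under none of them, Abhd4 only relative to the median gene, and the interval of Abhd4 in cells without a state gene, -0.78 to 0.45, includes 0. Scaling by the median gene turned Supt16 to -0.046 and Oxa1l to -0.034. Of lower neighbours, 9 of 47 were counted with at least 20 UMIs and 3 of 22 within 250 kb. Of higher neighbours, 0 were counted with at least 200 UMIs and 0 under the narrower cell filter, and 3 within 3 Mb and 3 without the shift to the median gene. The shares over all genes, 5.09% lower and 2.08% higher, hold for at least 50 UMIs with the main filter and scaling. None is given for the other minimums, filter or scaling, so nothing is read from those counts. The WT spread of Gm43305 over states was 1.51 with states from thinned counts. Thinning to 1000 UMIs gave Gm43305 in 52.7% of WT and 6.85% of Pac1-/- cells. The cause of these moves was not tested. UMIs were few for Abhd4, for Rpgrip1 in Pac1-/- cells and in the small states, so their intervals are wide. No paired analysis was possible because each genotype has 1 library.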
